A study of Mus musculus with 2 samples.

Results

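Genes of steroid hormone synthesis and conversion were examined in the dorsolateral prostate of 6-month-old FVB/N mice. The set held 10 genes (Cyp17a1, Cyp11a1, Cyp19a1, Srd5a1, Srd5a2, Srd5a3, Hsd17b4, Hsd17b11, Star and Akr1c18) of the 18952 genes named on the array. They were chosen by function, except Cyp17a1, which was picked for its higher ratio in the transgenic pool. Its ratio is therefore a description and supports nothing by itself. All 10 genes had probes on the array, 15 in total, and 6 genes were detected, meaning that on both arrays the scanner software placed the spot well above background in 1 pool or both.

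RNA of 6 wild-type mice was pooled and set against RNA pooled from 6 mice carrying ARR2PB-miR32, a transgene for the microRNA miR-32. ARR2PB is a composite promoter built from the androgen-responsive probasin gene, which directs a transgene to prostate epithelium. The pools shared 2 arrays of 1 slide. On array 1 the transgenic pool was labelled with Cy3 and the wild-type pool with Cy5, and on array 2 the dyes were exchanged. Both arrays carried the same pair of RNA pools and so count as 1 replicate, which allows no p-value for genotype. Every ± is the SD over 2 arrays and measures technical spread, not spread between mice.

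Steroid hormones are made from cholesterol. Star carries cholesterol into the mitochondrion, Cyp11a1 cleaves its side chain to pregnenolone, and Cyp17a1 adds the 17-hydroxyl group and splits the side chain to yield androgen precursors. These steps are best known from testis and adrenal. The prostate mainly converts circulating testosterone: the steroid 5-alpha reductases Srd5a1 and Srd5a2 make the more potent androgen dihydrotestosterone, while aromatase (Cyp19a1) makes oestrogen and dehydrogenases such as Hsd17b4, Hsd17b11 and Akr1c18 inactivate or interconvert steroids.

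The transgene product is shown first, because all comparisons turn on it. The mouse miR-32-5p of RefSeq (GRCm38.p6) is set beside 2 members of its family that share the seed, bases 2 to 8, in capitals. The labels do not name the arm, and none of these mature microRNAs was measured on the array.
mmu-miR-32-5p: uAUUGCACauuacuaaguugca
mmu-miR-25-3p: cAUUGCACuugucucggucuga
mmu-miR-92a-3p: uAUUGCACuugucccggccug

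Across the series the arrays differed in signal. Between 21.1% (Cy5, array 2) and 58.3% (Cy3, array 1) of spots were well above background, and the median net signal of Cy5 was 26 on array 1 and 10 on array 2. Calls were made by size: the ratio of transgenic over wild type had to be at least 1.5-fold (0.58 in log2) on array 1 and again, the same way, on array 2. Of 10435 detected genes, 95 were called higher and 136 lower, and the median log2 ratio of all detected genes was -0.06. Across those genes, which are not independent replicates, Pearson's r between array 1 and array 2 was -0.03. The gland's own markers were present: all 9 markers of the secretory epithelium were detected in both pools on both arrays.

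**Figure D1:**
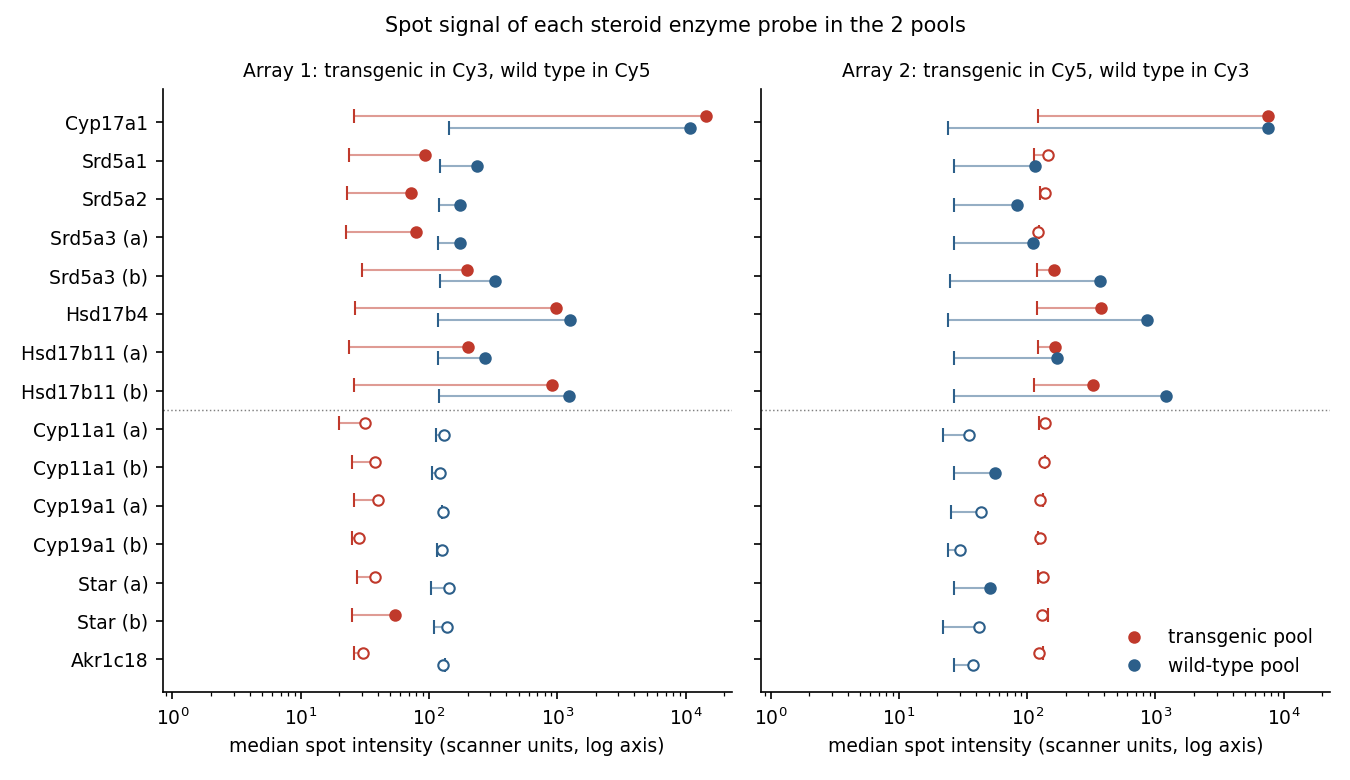
Median spot intensity (scanner units, log axis) of every probe of the 10 genes on each array, in the transgenic (red) and wild-type (blue) pools; ticks mark the local background of the spot, filled points are well above background, and (a) and (b) are separate probes of a gene. Genes above the dotted line were detected. Cyp17a1 stands far above background in both pools on both arrays, while the 4 genes below the line stay close to it.

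Cyp17a1 was the only called member. Its probe gave a spot signal of 14354 in the transgenic pool and 10850 in the wild-type pool on array 1, over local backgrounds of 26 and 144. On array 2 the signals were 7587.5 in the transgenic and 7592 in the wild-type pool, over 122 and 24. The raw signals were thus higher in the transgenic pool on array 1 and level on array 2, where the transgenic pool was read in the weak Cy5 channel. Net of background, the transgenic-over-wild-type ratio was 1.34 on array 1 and 0.986 on array 2, whereas the median over the 500 detected probes closest in brightness was 0.764 and 0.211. Loess compares each spot with others of like brightness, so the normalized ratio on array 2 comes from that reference and not from a raw difference between the pools.

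After normalization Cyp17a1 had a log2 ratio of 0.82 on array 1 and 2.42 on array 2, with a mean of 1.62 ± 1.13 (2 arrays), or 3.07-fold higher in the transgenic pool. It ranked 8 from the top among the 10435 detected genes by mean ratio. Counting Cyp17a1 itself, 367 genes were at least as high on array 1 and 3 on array 2. On a single array, 8.1% (array 1) and 5.21% (array 2) of detected genes were at least 1.5-fold higher. The arrays differed by 1.60 in log2, a gap that 3.8% of detected genes reached or passed. The log ratios made by the scanner software were closer to each other, at 1.02 and 1.75, and the software's own errors for these spots were 0.22 and 0.26 in log2. In the authors' deposited table the values were 1.01 and 1.73.

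The call of 1 of 6 detected members stands beside 0.91% of all detected genes called higher, 1.3% called lower and 2.21% called either way. Nothing is read from that share, since Cyp17a1 was chosen on this contrast. The remaining 5 detected members had 0 calls and a median log2 ratio of -0.04, close to the median of all detected genes.

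The call of Cyp17a1 ended with median centring in place of loess, where its log2 ratio was 0.57 (0.73 and 0.41 on the arrays). That setting moved the median of all detected genes to -0.57, and Cyp17a1 stood 1.13 above it. The call also ended at a threshold of 2-fold on each array, and the fold on array 1 was 1.77.

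**Figure D2:**
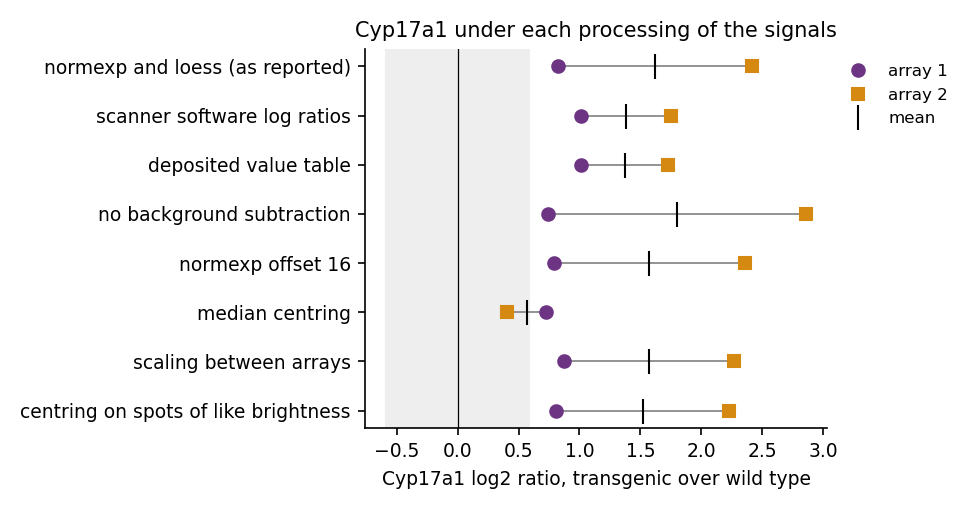
Log2 ratio of Cyp17a1 (transgenic over wild type) on array 1 (circles) and array 2 (squares), with the mean as a tick, under each processing of the signals; the grey band spans less than 1.5-fold. Every value is above 0, and array 2 falls inside the band with median centring, at 0.41.

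Other genes listed as markers of steroid-producing cells, whose specificity was not tested, were mostly not detected beside Cyp17a1. Of 10 markers of testicular or adrenal steroidogenic cells, 8 were on the array and 2 were detected, Inha, an inhibin subunit, at -0.19 ± 0.31 and Mrap, a melanocortin receptor partner, at -0.43 ± 0.09. Lhcgr, Mc2r, Hsd3b1, Cyp21a1, Nr5a1 and Akr1b7 did not meet the detection rule. The summed normalized intensity of the detected markers was 169 to 175 in the transgenic pool and 198 to 231 in the wild-type pool. Both met the detection rule through the wild-type pool, and the transgenic pool was well above background on 1 array, so these sums include readings near background and no difference is read from them. The part of such cells in the Cyp17a1 ratio was not tested.

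The genes on either side of Cyp17a1 in the pathway gave no usable ratio. Both probes of Star were near background: probe (a) was well above it only in the wild-type pool on array 2 (51.5 over 27), and probe (b) only in the transgenic pool on array 1 (54 over 25). Each of these readings was in Cy3, so they cannot be told apart from the dye. Of the Cyp11a1 probes, (a) was not well above background in any reading, and (b) was so only in the wild-type pool on array 2, at 56.5 over 27. Cyp19a1 had spot signals of 28.5 to 44 in Cy3 and 125 to 129 in Cy5 over its 2 probes, and Akr1c18 had 30.5 and 38 in Cy3 and 123 and 129.5 in Cy5. None of these was well above background, which sets no fold for either gene.

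The 5-alpha reductases showed no called difference. Srd5a1, the form known for wide tissue expression, had signals of 92.5 (transgenic) and 236.5 (wild type) on array 1, over backgrounds of 24 and 123, and of 145 and 116 on array 2, over 113 and 27. Its log2 ratio was -0.27 on array 1 and 0.33 on array 2, with a mean of 0.03 ± 0.43. The arrays thus pointed in opposite directions, as they did for 54.6% of detected genes. Srd5a2, the form best known from the male reproductive tract, gave 73 and 176 on array 1 and 137 and 83 on array 2. Its backgrounds were 23 and 119 on array 1 and 127 and 27 on array 2. Its log2 ratios were 0.02 and -0.09, with a mean of -0.04 ± 0.08.

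For both genes the transgenic pool was well above background on 1 of the 2 arrays, and the reading that fell short was Cy5 of array 2. In the scanner software's own ratios that array gave -1.38 for Srd5a1 and -1.69 for Srd5a2, against -0.30 and 0.15 on array 1. Their means were then -0.84 and -0.77. Without background subtraction array 2 gave 0.09 and 0.05, and the cause of the difference between these settings was not tested. Neither passed the size rule under any processing tried.

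Srd5a3 is named after the reductases but is best known as a polyprenol reductase needed for protein glycosylation. Its brighter probe gave 198 and 328 on array 1 and 163 and 368 on array 2, in the transgenic and wild-type pools. The backgrounds were 30 and 123 on array 1 and 120 and 25 on array 2. The log2 ratios were 0.02 and -0.31, a mean of -0.14 ± 0.23. The second probe had 0.11 and -0.60, a mean of -0.25 ± 0.50, with the transgenic pool below the detection mark on array 2. Both probes were near 0 on array 1 and below 0 on array 2.

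**Figure D3:**
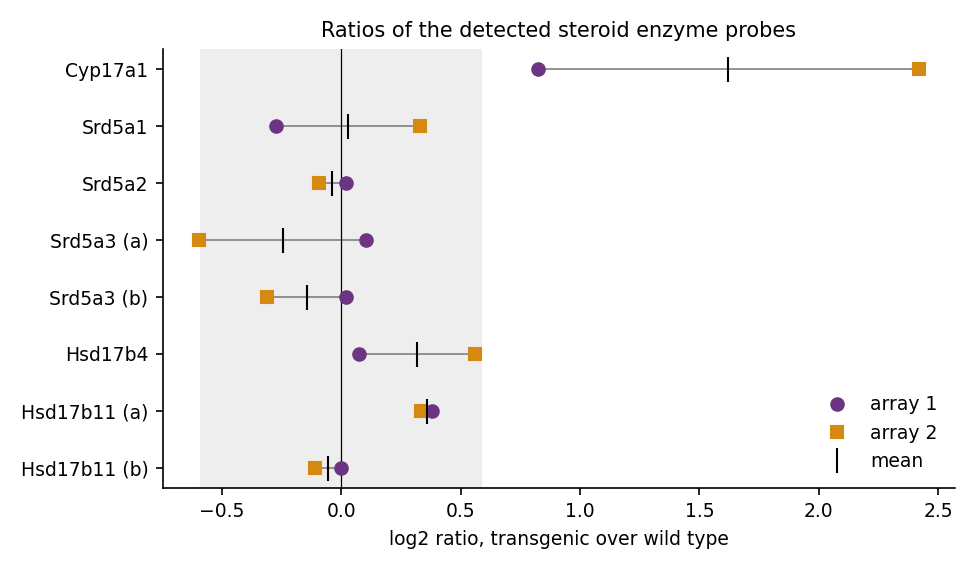
Log2 ratio (transgenic over wild type) of each detected probe of the steroid enzymes on array 1 (circles) and array 2 (squares), with the mean as a tick; the grey band spans less than 1.5-fold and (a) and (b) are probes of the same gene. Cyp17a1 alone lies outside the band on both arrays, and the Hsd17b11 probes keep apart by 0.38 and 0.44 on the arrays.

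The 17-beta-hydroxysteroid dehydrogenases were well above background in both pools on both arrays. Hsd17b4, a peroxisomal enzyme of fatty acid oxidation that can also oxidize oestradiol, had signals of 974.5 and 1262.5 on array 1 and 377.5 and 863 on array 2, in the transgenic and wild-type pools. Its backgrounds were 26.5 and 117 on array 1 and 119 and 24 on array 2. Its log2 ratio was 0.07 on array 1 and 0.56 on array 2, just under the 1.5-fold mark, and the mean was 0.32 ± 0.35. Median centring gave a mean of -0.51, which was 0.06 above the median of all detected genes in that setting.

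The 2 probes of Hsd17b11, an enzyme found on lipid droplets that oxidizes androgen metabolites, did not give the same ratio. The brighter probe, with 903.5 and 1237 on array 1 and 326 and 1218 on array 2, had log2 ratios of -0.0002 and -0.11 (mean -0.05 ± 0.08). Its backgrounds were 26 and 119 on array 1 and 114 and 27 on array 2. The dimmer probe, with 202 and 271.5 on array 1 and 166 and 172 on array 2, had 0.38 and 0.33 (mean 0.36 ± 0.03). Its backgrounds were 24 and 117.5 on array 1 and 122 and 27 on array 2. The dimmer probe was higher by 0.38 on array 1 and 0.44 on array 2, and by 0.47 and 0.55 in the scanner software's values. The gap exceeded the SD of each probe, but each SD rests on 1 spot per array and does not measure the error of a spot. The scanner software's own errors for the dimmer probe were 0.22 on array 1 and 0.31 on array 2 (log2). Whether the probes detect different transcripts was not tested. With the mean over probes the gene stood at 0.15, with the sign turned.

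The promoters give a feature that the choice of genes did not use. RefSeq promoters of GRCm38.p6, from 250 bases before to 50 after the start, matched 7 of the 10 genes with 10 sequences. Cyp17a1, Hsd17b4 and Star had no entry. The promoters of the 4 detected genes (Srd5a1, Srd5a2, Srd5a3 and Hsd17b11) held 15 to 26 CpG dinucleotides, and the 6 promoters of the undetected genes (Cyp11a1, Cyp19a1 and Akr1c18) held 1 to 7, beside a median of 7 over 32851 promoters. Several of the 6 belong to the same gene, and CpG counts were not compared between all detected and all undetected genes. No link between CpG and detection is therefore read from these few promoters. The other promoter of Cyp11a1 held 7. A few are shown with CpG in capitals: 24 in Srd5a1, 15 in Srd5a2 and 1 in the shown promoter of the 2 listed for Cyp11a1.
Srd5a1, chr13:69611414-69611713, minus strand: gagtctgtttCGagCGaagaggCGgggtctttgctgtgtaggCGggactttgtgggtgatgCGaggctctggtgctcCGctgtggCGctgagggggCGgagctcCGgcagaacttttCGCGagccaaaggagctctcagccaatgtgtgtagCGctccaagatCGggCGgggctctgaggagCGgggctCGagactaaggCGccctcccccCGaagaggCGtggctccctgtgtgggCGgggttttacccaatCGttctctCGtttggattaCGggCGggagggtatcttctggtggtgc
Srd5a2, chr17:74047811-74048110, minus strand: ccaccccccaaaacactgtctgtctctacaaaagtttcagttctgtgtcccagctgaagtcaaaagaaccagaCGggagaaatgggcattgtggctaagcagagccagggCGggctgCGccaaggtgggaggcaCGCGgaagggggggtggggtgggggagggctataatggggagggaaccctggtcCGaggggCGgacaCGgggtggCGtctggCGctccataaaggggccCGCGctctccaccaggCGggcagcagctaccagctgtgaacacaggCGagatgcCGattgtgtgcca
Cyp11a1, chr9:58014702-58015001, plus strand: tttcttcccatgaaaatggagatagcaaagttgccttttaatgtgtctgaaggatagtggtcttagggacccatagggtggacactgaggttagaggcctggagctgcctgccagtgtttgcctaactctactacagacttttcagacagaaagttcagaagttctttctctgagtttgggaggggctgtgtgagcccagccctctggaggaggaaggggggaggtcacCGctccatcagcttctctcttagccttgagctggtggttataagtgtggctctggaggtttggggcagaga
The Sp1 GC box GGGCGG, searched on both strands, occurred in all 4 promoters of detected genes (1 to 4 copies) and in 2 of the 6 others, and in 35.7% of all promoters. The SF-1 site CAAGGTCA was found in none of the 10, beside 1.56% of all promoters, which says only that these letters are not in this window. The TATA box letters TATAAA were in 2 of the 3 Cyp19a1 promoters and in 13.6% of all promoters.

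**Figure D4:**
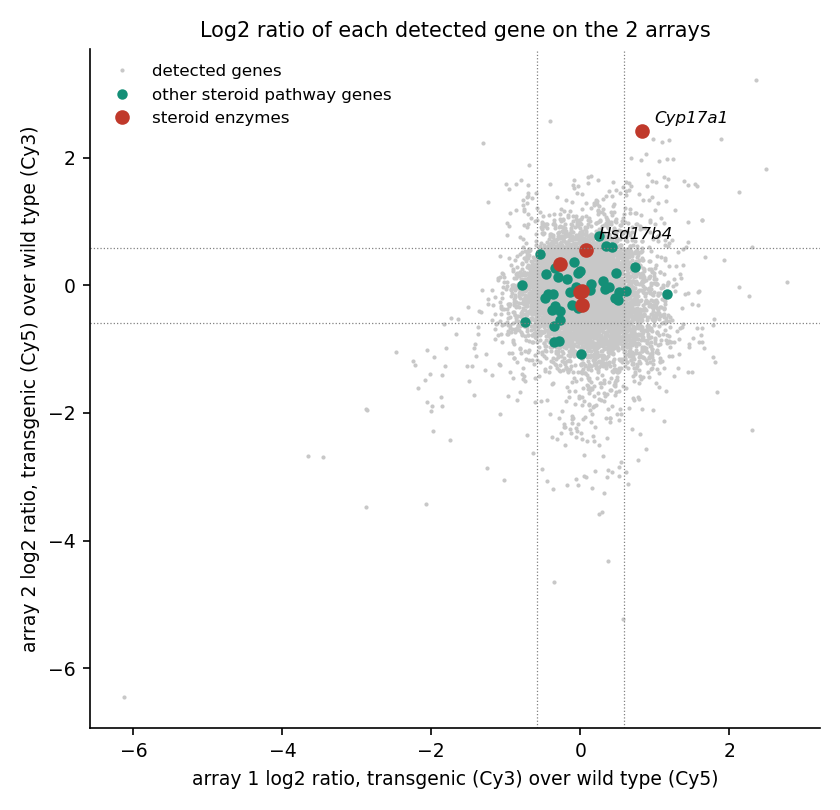
Log2 ratio of transgenic over wild type on array 1 (horizontal) and array 2 (vertical) for the 10435 detected genes (grey), the detected genes of the wider steroid pathway (green) and the steroid enzymes (red); dotted lines mark 1.5-fold. Cyp17a1 lies in the upper right corner at 0.82 and 2.42, and no other red or green point is beyond the lines on both axes in the same direction.

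The wider steroid pathway was read from a list of 88 further genes, 83 on the array and 42 detected. None passed the size rule in either direction, beside 2.21% of all detected genes, and 18 had a mean above 0 and 24 below. Their median log2 ratio was -0.03, against -0.06 for all detected genes. In 20 of the 42 the transgenic pool was well above background on fewer than 2 arrays, as it was in 4373 of all 10435 detected genes. Probes of the Akr1c, Ugt2b, Hsd3b and Cyp3a families can bind transcripts of near-identical members, so single members of these families are uncertain.

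Of 9 detected genes of cholesterol supply, Tspo, an outer mitochondrial membrane protein linked to cholesterol transport, was lowest. Its log2 ratio was -0.74 on array 1 and -0.57 on array 2 (mean -0.66 ± 0.12), so array 2 fell just short of 1.5-fold, and a second probe had a mean of -0.62. With the mean over probes, the scanner software's log ratios, the deposited table or median centring Tspo was called lower. Scarb1, the receptor for high-density lipoprotein, was at -0.57 ± 0.42, with the transgenic pool well above background on 1 array. Acbd3, a Golgi protein that binds Tspo, was at 0.51 ± 0.12, with other probes at 0.43 and -0.21.

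The electron donors that cytochrome P450 enzymes need did not pass the rule. Por, the reductase that serves Cyp17a1, had -0.34 and -0.32 on the arrays (mean -0.33 ± 0.02). Cyb5a, the cytochrome that aids the side-chain cleavage step of Cyp17a1, had 0.0035 on array 1 and -1.07 on array 2 (mean -0.53 ± 0.76). Cyb5b was at 0.26 ± 0.50. How the ratios of these electron donors relate to that of Cyp17a1 was not tested.

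Among the enzymes that follow Cyp17a1, Hsd3b7, which acts in bile acid synthesis, was the detected member of the 3-beta-hydroxysteroid dehydrogenases (-0.06 ± 0.04). Hsd3b1, Hsd3b2, Hsd3b3, Hsd3b4, Hsd3b5 and Hsd3b6 were not detected, nor were Hsd17b1 and Hsd17b3, which reduce oestrone and androstenedione. Of 5 detected dehydrogenases of the other 17-beta and 11-beta group, Hsd11b1, which regenerates active glucocorticoid, was at -0.38 ± 0.0031. H2-Ke6 (also Hsd17b8) was at 0.13 ± 0.52 and Hsd17b10 at 0.09 ± 0.16. The 3 detected ketosteroid reductases and related dehydrogenases had means below 0, as did 6198 of the 10435 detected genes. Akr1c19 was at -0.62 ± 0.38, Akr1c12 at -0.34 ± 0.08 and Dhrs11 at -0.34 ± 0.19. In each of these 3 the transgenic pool was well above background on 1 array. They met the detection rule through the wild-type pool, so no direction is read from them.

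Conjugating and hydroxylating enzymes gave means on both sides of 0. Ugt2b35, a glucuronosyltransferase, was at 0.51 ± 0.32, with 0.73 on array 1 and 0.28 on array 2. With the scanner software's log ratios, the deposited table or centring on spots of like brightness Ugt2b35 was called higher. Sult1e1, the oestrogen sulfotransferase, was at -0.39 ± 0.56, with -0.78 on array 1 and 0.01 on array 2, and Ugt2b34 at -0.28 ± 0.22. Cyp3a11, a steroid and drug hydroxylase, was at 0.51 ± 0.37 and Cyp27a1, a sterol hydroxylase, at -0.49 ± 0.20. For Ugt2b34 and Cyp27a1 the transgenic pool was well above background on 1 array.

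Receptors and regulators did not pass the rule either. Nr3c1, the glucocorticoid receptor, had 1.16 and -0.13 (mean 0.51 ± 0.92), while its other 2 probes had means of -0.02. Gper1 was at -0.21 ± 0.13 and Nr3c2, the mineralocorticoid receptor, at 0.19 ± 0.16. For all 5 detected receptors, and for the regulators Crem and Creb1, the transgenic pool was well above background on 1 array. Nr4a1, an immediate early regulator of steroidogenic genes, was at -0.41 ± 0.18, Crem at 0.11 ± 0.16 and Creb1 at -0.02 ± 0.08, and Nr5a1, Nr5a2, Gata4 and Gata6 were not detected.

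**Figure D5:**
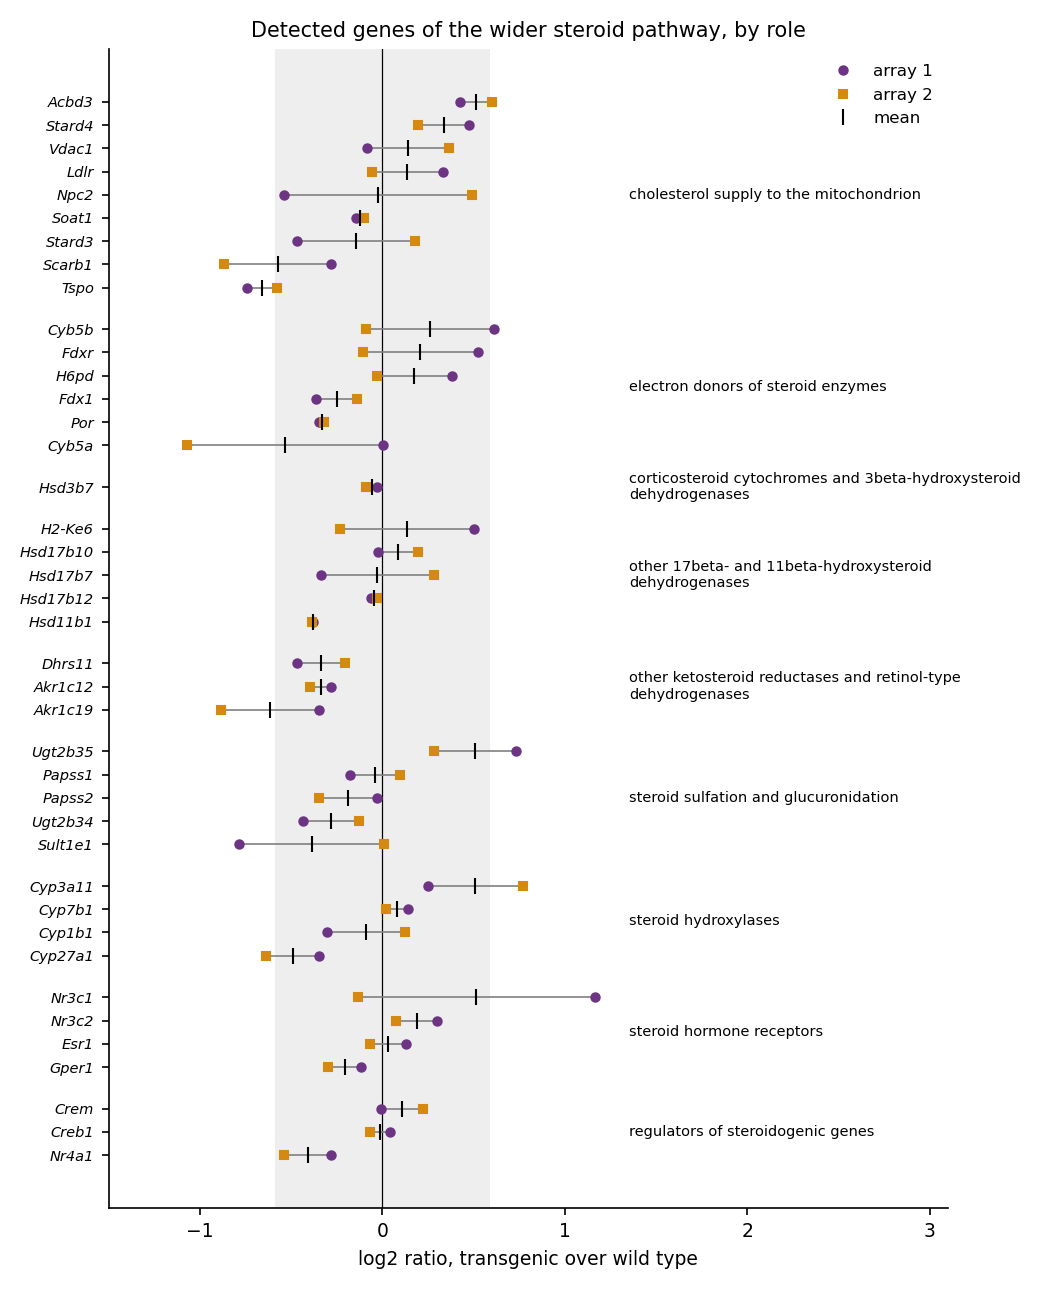
Log2 ratio (transgenic over wild type) of 40 of the 42 detected genes of the wider steroid pathway, grouped by role, on array 1 (circles) and array 2 (squares), with the mean as a tick; the grey band spans less than 1.5-fold. No gene lies outside the band on the same side on both arrays, and Tspo comes closest at -0.74 and -0.57.

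Markers of other cells differed between the pools and stand beside these values. In whole tissue, fewer cells of a type and less RNA per cell cannot be told apart. Of all detected genes 1.3% were called lower and 0.91% higher, and the counts below stand beside those shares. Of 7 detected adipocyte markers 5 were called lower (among them Cfd -2.75 ± 0.96, Fabp4 -2.13 ± 0.22 and Adipoq -1.81 ± 0.08), with a summed normalized intensity of 1630 to 1840 in the transgenic and 6530 to 7400 in the wild-type pool. Of 7 myeloid markers 2 were called lower (Cd74 -2.09 ± 0.47 and C1qc -0.75 ± 0.23; C1qa was at -0.74 ± 0.78), with sums of 1210 to 1520 and 2590 to 4120. For 5 of the 7 adipocyte markers, Cfd and Adipoq included, the transgenic pool was well above background on 1 array. The same held for 4 of the 7 myeloid markers, C1qa included, and for Col3a1 and Ceacam10. The size of all these ratios is therefore uncertain, as is that of the difference between the sums, which include such readings. Of 9 secretory epithelial markers 4 were called lower, among them Spink1 at -6.29 ± 0.23, Sbp at -3.18 ± 0.42 and Msmb at -0.86 ± 0.37. None was called higher, but the means of Tgm4 (0.25 and 1.16 on the arrays, mean 0.70 ± 0.64) and Pbsn (-0.32 and 1.39, mean 0.54 ± 1.21) were above 0. The summed intensity of the 9 markers was 317000 in the transgenic and 476000 in the wild-type pool on array 1. On array 2 it was 504000 and 413000, so the arrays pointed in opposite directions. None of 8 stromal and muscle markers passed, with medians of 0.50 on array 1 and -0.72 on array 2 (largest Col3a1 -0.97 ± 1.26, Myh11 0.56 ± 0.09 and Des -0.48 ± 0.10), and the detected seminal vesicle product Ceacam10 was at -1.36 ± 0.14, with 6 others not detected. The part of these cells in the ratios of the steroid genes was not tested.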

How the data were processed

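Total RNA of dorsolateral prostate, 100 ng per pool, was labelled for 2-colour arrays, per the labels' protocols. The deposited spot and background values are median pixel intensities made with Feature Extraction 11.0.1.1, not normalized, per the file headers; the processed intensities and their log10 ratio in the same files were background-subtracted and dye-normalized by that software, per the file headers. A further table that the authors deposited gives log2 ratios with a median of 0. On 8498 shared probes it matched the software's ratio of transgenic over wild type with r and slope of 1, so direction and scale were settled. How its probes were selected is not stated in those sources.

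Median signals were corrected with limma 3.58.1 in R 4.3.3 by normexp (offset 50) and loess per array, with control and outlier spots at weight 0 (157 and 177 outliers). Ratios were turned to transgenic over wild type. No spot was saturated. Each member probe was printed once; among 245 others, with 10 spots each, the spots of a probe varied by a median SD of 0.17 on array 1 and 0.23 on array 2 (log2). Accessions of 27816 of 41174 probes matched a RefSeq table of GRCm38.p6. The headers cite another build, so array coordinates are not given. A gene took its brightest detected probe.

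The members and lists were chosen with earlier results of these data known. Values of 2 genes of the wider pathway are not reported here. Named genes were all members, up to 3 detected genes per role or marker list with the largest absolute mean, and the 5 genes nearest to Cyp17a1. Calling by size was also run on simulated data with independent noise, which does not measure how reliable the calls on these arrays are. The number of arrays limits the precision. Tables and figures were made with pandas 2.3.3, numpy 2.4.6 and matplotlib 3.10.9 in Python 3.11.15.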

Additional observations from a re-analysis of the deposited data

How the results depend on the processing

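Cyp17a1 stayed above 0 under all 12 alternatives that gave it a value (log2 0.57 to 2.42, the highest on array 2 alone and 0.82 on array 1 alone). It kept its call in 11 and lost it with median centring (0 members called higher), as at 2-fold (0 members). No member was called lower in any. Dropping the detection filter, requiring detection in both pools or averaging probes could not change Cyp17a1, whose 1 probe was detected in both pools. Leaving out 1 array only repeats its value on the other. Pathway calls, 0 and 0 as reported, became 3 higher and 6 lower by the scanner software, 2 and 1 in the authors' deposited table, 0 and 3 after median centring, 0 and 1 when probes were averaged, 2 and 2 with centring on spots of like brightness (chosen after seeing the data), and 3 higher and 2 to 4 lower with 1 array left out. All detected genes, 95 higher and 136 lower, were split 247 to 627, 178 to 119, 2 to 554 and 305 to 323 by the software, in that table, after median centring and by like brightness, 65 to 128 when probes were averaged, 149 to 240 with an offset of 16, 94 to 76 when detected in both pools, 25 to 37 at 2-fold, and 544 to 845 higher and 558 to 1569 lower with 1 array left out. Signal over background limits Srd5a1, Srd5a2 and the undetected genes. No paired analysis was possible because each genotype is 1 pool.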

Other observations

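The 5 detected genes whose ratios on the arrays lay nearest to those of Cyp17a1 (Euclidean distance over 2 arrays) were Arid5b, an AT-rich DNA-binding protein (0.98 and 2.30), 1110006O24Rik (1.09 and 2.25), Mov10, an RNA helicase (0.88 and 2.06), Fbxo2, an F-box protein that binds glycoproteins (1.19 and 2.29), and Itpr1, an inositol trisphosphate receptor (0.68 and 2.00). Each was higher on array 2, which follows from the choice by nearness to Cyp17a1 and supports nothing by itself. Of the 95 genes called higher, 61 had the larger ratio on array 2. Arid5b, Fbxo2 and Itpr1 had other detected probes, whose ratios were less than 1.5-fold on each array. They were 0.21 and -0.21 on the arrays for Arid5b, with a mean of -0.18 for Itpr1. Fbxo2 had a probe at 0.23 and 0.39 (mean 0.31), above 0 on both arrays, and another at -0.28 and 0.01 (mean -0.13). Cyp17a1 has no other probe on the array, so its ratio has no check of this kind.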
